A study of Mus musculus with 6 samples.

Results

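A set of 6 chemokine receptor genes was followed in dendritic cells grown from mouse bone marrow. They were Ccr1, Ccr2, Ccr7, Cxcr4, Cx3cr1 and Ccrl2, taken by gene name as receptors of immature and of migratory dendritic cells. They make up 6 of the 23398 genes in the deposited table, and each name matched 1 row. All 6 libraries were used: 3 from vehicle-treated cells and 3 from cells given Ca(OH)2 nanoparticles, in both cases for 12 hours. Both groups were grown in DMEM with serum, penicillin and streptomycin. Mouse strain, age, growth factors and particle dose are not given in the sources used here. Nor is it stated that the replicates came from separate animals or cultures, so p-values measure the spread between these libraries, which may be technical.

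Chemokine receptors are G protein-coupled receptors that steer cells along gradients of small secreted chemokines. Immature dendritic cells and their monocyte precursors carry receptors for inflammatory chemokines, which bring them into tissue. On maturation they gain Ccr7, which guides them through lymphatic vessels to the lymph node. The comparison asks how the level of each receptor transcript differed between treated and untreated cells.

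Levels are in FPKM (fragments per kilobase of exon, relative to library size), and the depth was 17286344 to 21981174 recovered reads per library. Nanoparticle library 1 stood apart from its group: 1257 of 10682 tested genes lay over 2-fold from the mean of the other 2, while nanoparticle libraries 2 and 3 had 152 and 337 such genes and each vehicle library 36 to 47. Of the tested genes, 33.2% were called with it and 64.8% without it. Of the cell type markers, the dendritic cell integrin gene Itgax was at 248 to 456 FPKM in every library, while the cytokine receptor gene Flt3 stayed below 0.1 FPKM in all. The T cell markers Cd3e, Cd3d and Cd3g, the B cell markers Ms4a1 and Pax5 and the NK cell markers Ncr1, Klrb1c and Eomes were also below 0.1 FPKM throughout. The summed level of the 6 T cell markers was nevertheless 0.311 to 0.494 FPKM in vehicle and 1.21 to 2.33 FPKM with nanoparticles, below the filter for each gene. Most of it came from the kinase gene Lck, at 0.213 to 0.276 and 0.701 to 1.40 FPKM, and from Cd247, with 1 to 3 reads in vehicle and 18 to 43 with nanoparticles. The B cell marker Cd79a reached 0.329 FPKM, in a vehicle library. In bulk RNA, fewer cells of a type and less RNA per cell cannot be told apart.

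Of the receptors 2 rose, 2 fell and 1 did not pass the test, while Cx3cr1 lay below the expression filter of at least 1 FPKM in at least 3 libraries. Genes were tested with limma on log2(FPKM + 1), and called at a Benjamini-Hochberg adjusted p under 0.05 over all 10682 tested genes. Calls were frequent: 17.0% of tested genes were called higher and 16.2% lower, 33.2% in all. That balance belongs to the deposited scaling: 1817 genes were higher and 1733 lower with it, against 1108 and 3613 with libraries scaled by recovered read totals. The 2 receptors called higher and the 2 called lower are also those whose groups did not overlap. Among tested genes 25.9% had non-overlapping groups in the higher and 26.2% in the lower direction, so separation by itself was common. The sizes of 3 of these changes were less common. Ccr7 had rank 32 and Ccrl2 rank 38 from the largest increase of 10682 genes, and Ccr2 had rank 14 from the largest decrease. Cxcr4 had rank 1119 from the largest decrease, with 10.5% of genes below it.

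**Figure D1:**
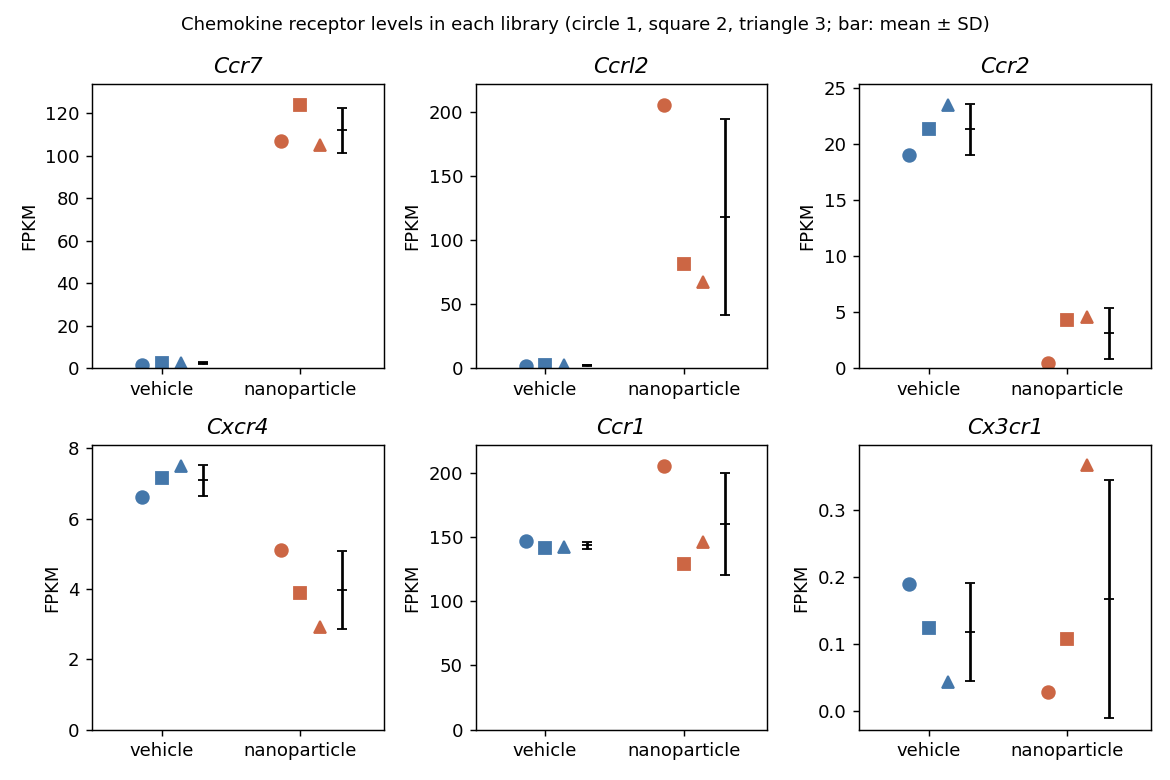
Level of each receptor in FPKM (y axis, linear, a scale of its own per panel) in the 3 vehicle (blue) and 3 nanoparticle (orange) libraries; circle, square and triangle are libraries 1, 2 and 3, and the bar is the mean ± SD. Ccr7 and Ccrl2 lie higher and Ccr2 and Cxcr4 lower in all 3 nanoparticle libraries, while the groups overlap for Ccr1 and Cx3cr1.

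For sequence context, the bases just before the start of a receptor that rose and one that fell are shown, from RefSeq windows on build GRCm38.p6. The Ccrl2 stretch is chr9:111057520-111057768 and the Cxcr4 stretch chr1:128592300-128592549, both on the minus strand and written 5′ to 3′. The Ccrl2 stretch ends at the first annotated exon. The Cxcr4 stretch ends at its RefSeq start, a few bases short of the first base of the gene in GENCODE M21, at 128592293. Capitals mark a match to the kappa-B consensus, the binding motif of NF-kappaB, and lower case marks all other bases.
Ccrl2: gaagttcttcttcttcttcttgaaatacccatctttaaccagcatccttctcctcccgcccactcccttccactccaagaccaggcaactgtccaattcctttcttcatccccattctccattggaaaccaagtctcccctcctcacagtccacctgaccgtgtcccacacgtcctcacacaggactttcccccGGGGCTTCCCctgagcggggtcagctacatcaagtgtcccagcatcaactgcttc
Cxcr4: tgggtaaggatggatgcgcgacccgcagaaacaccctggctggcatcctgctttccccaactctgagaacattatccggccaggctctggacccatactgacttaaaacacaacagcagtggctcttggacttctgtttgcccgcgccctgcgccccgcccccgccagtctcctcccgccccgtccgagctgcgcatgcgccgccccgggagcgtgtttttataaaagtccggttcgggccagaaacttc
The Ccrl2 match lies 56 to 47 bases before the start. There were 7 windows for 5 of the 6 receptors, all but Ccr7. On either strand of the 250 bases before the start the consensus occurs in 1 of the 7, against 3.90% of all 32851 windows. The AP-1 motif TGANTCA, held by 6.75% of all windows, occurs in 0 of the 7. Not all of these windows lie upstream of the gene: those of Cx3cr1 and Ccr2 have 0 and 17 bases ahead of an annotated exon, and the other Ccrl2 windows 1 and 0. A match describes letters and not a bound site, and nothing about binding was measured here.

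Ccr7, the receptor for Ccl19 and Ccl21 and the defining receptor of dendritic cells on their way to lymph nodes, rose from near the bottom of the receptor order to near its top. It is a protein-coding gene at chr11:99144196-99155077, minus strand (GENCODE M21 on GRCm38, as are all gene positions here). It held 1.75, 2.499 and 2.62 FPKM in vehicle libraries 1 to 3 and 107, 124 and 105 FPKM in nanoparticle libraries 1 to 3. The groups stood far apart, and for this gene nanoparticle library 1 lay between the other 2. The means were 2.29 ± 0.469 and 112 ± 10.5 FPKM (SD, n = 3 each), a 48.9-fold difference. By limma the log2 change was 5.11 with an SE of 0.143 and an adjusted p of 1.84e-05. The values rest on 69 to 108 recovered reads per vehicle library and 3445 to 4056 per nanoparticle library.

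Ccrl2, an atypical receptor that binds the chemoattractant chemerin and presents it to neighbouring cells, rose by a similar factor but unevenly. Its protein-coding gene is at chr9:111054486-111057519, minus strand. Vehicle libraries held 2.11, 2.21 and 2.88 FPKM, and nanoparticle libraries 1 to 3 held 205, 81.1 and 67.2 FPKM. All treated libraries were higher than all untreated ones, with nanoparticle library 1 far above the other 2. The means were 2.40 ± 0.417 and 118 ± 76.0 FPKM (SD, n = 3 each), a 49.1-fold difference. By limma the log2 change was 4.96 with an SE of 0.409 and an adjusted p of 4.0e-04, and without nanoparticle library 1 it was 4.47 with an adjusted p of 1.3e-06.

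Ccr2, the receptor for Ccl2 that brings monocytes and their progeny into inflamed tissue, fell. The protein-coding gene is at chr9:124101950-124113557, plus strand. Vehicle libraries 1 to 3 held 19.0, 21.4 and 23.5 FPKM, and nanoparticle libraries 1 to 3 held 0.507, 4.31 and 4.56 FPKM. Every treated library was below every untreated one, and library 1 was lowest, at 56 reads against 482 and 594 in libraries 2 and 3. The means were 21.3 ± 2.25 and 3.13 ± 2.27 FPKM (SD, n = 3 each), 6.82-fold lower. By limma the log2 change was -2.65 with an SE of 0.502 and an adjusted p of 0.00857. Nanoparticle library 1 sets part of this size: on the log2(FPKM + 1) scale Ccr2 was 6.28-fold lower with all libraries and 4.09-fold lower without it (log2 change -2.03, limma adjusted p = 9.2e-06). Of the 50-base stretches in Ccr2 transcripts, 1.91% also occur in transcripts of other genes, so some reads may have been shared.

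Cxcr4, the receptor for Cxcl12 that holds leukocytes in the bone marrow, was lower by a smaller margin. Its protein-coding gene is at chr1:128588199-128592293, minus strand. It held 6.61, 7.17 and 7.50 FPKM in vehicle libraries 1 to 3 and 5.11, 3.88 and 2.93 FPKM in nanoparticle libraries 1 to 3. The groups did not overlap, but here nanoparticle library 1 was the one nearest to vehicle. The means were 7.09 ± 0.450 and 3.97 ± 1.10 FPKM (SD, n = 3 each), 1.78-fold lower. By limma the log2 change was -0.72 with an SE of 0.172 and an adjusted p of 0.02003. This call ended when any 1 vehicle library or nanoparticle library 2 was left out: without vehicle libraries 1, 2 and 3 in turn the limma adjusted p was 0.0604, 0.0765 and 0.0819, and without nanoparticle library 2 it was 0.0623. Over all alternative settings the log2 change stayed between -1.24 and -0.57, with adjusted p from 5.8e-04 to 0.0819.

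Ccr1, which binds Ccl3, Ccl5 and other inflammatory chemokines, was the most abundant of the 6 in vehicle cells and did not pass the test. The protein-coding gene is at chr9:123962124-123968692, minus strand. Vehicle libraries held 147, 141 and 142 FPKM, and nanoparticle libraries 1 to 3 held 205, 129 and 146 FPKM. Only library 1 lay well above vehicle, and library 2 lay below it. The log2 change was 0.13 with a 95% interval from -0.33 to 0.59 (limma adjusted p = 0.642). Its direction depends on that library and on the scaling: the log2 change was -0.06 without nanoparticle library 1, -0.21 with libraries scaled by recovered read totals and -0.34 with TPM scaling, and it passed the test in none of these.

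Cx3cr1, the receptor for the membrane-bound chemokine Cx3cl1 and a marker of patrolling monocytes and tissue macrophages, was near the limit of detection. Its protein-coding gene is at chr9:119901616-120069879, minus strand, and its exons overlap those of Gm33858, so reads of these 2 genes may not be separable. Vehicle libraries 1 to 3 held 0.189, 0.123 and 0.0425 FPKM, from 17, 11 and 4 reads, and nanoparticle libraries 0.0272, 0.107 and 0.369 FPKM, from 2, 8 and 32 reads. Both the lowest and the highest value were in treated libraries. With so few reads and overlapping groups, a difference was not detectable at this depth.

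**Figure D2:**
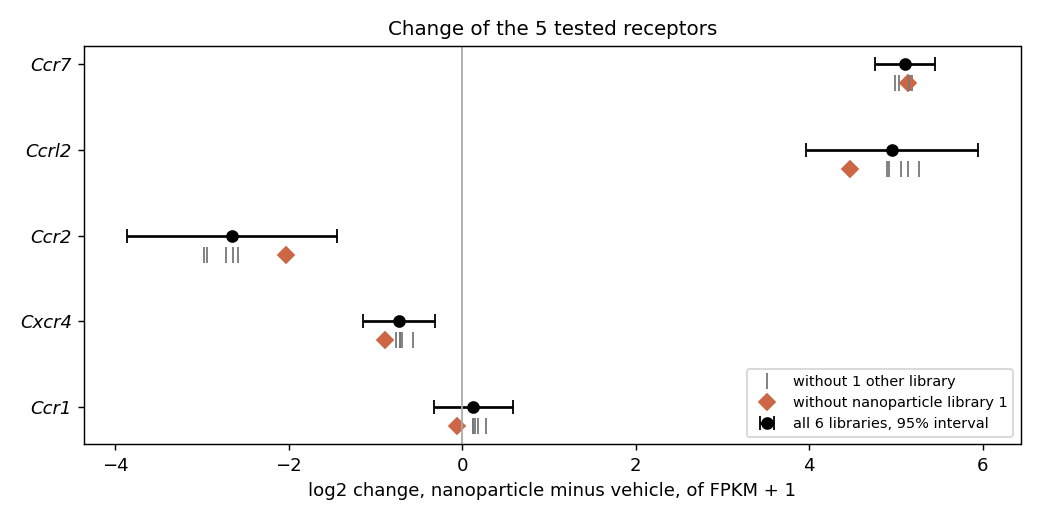
Log2 change of FPKM + 1, nanoparticle minus vehicle (x axis), of the 5 tested receptors, with the 95% interval from all 6 libraries (black), the value without nanoparticle library 1 (orange diamond) and the values without each of the other libraries (grey ticks). Ccr7 and Ccrl2 lie near 5, Ccr2 moves from -2.65 to -2.03 without library 1, and the interval of Ccr1 includes 0.

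The order of the receptors by FPKM, which is per length and so can be compared between genes, differed between the groups. In vehicle cells it was Ccr1 (143 ± 2.93 FPKM), Ccr2, Cxcr4, Ccrl2, Ccr7 and Cx3cr1 (0.118 ± 0.0736 FPKM, SD, n = 3 each). In that order only the neighbours Ccrl2 and Ccr7 overlapped in their ranges over the 3 libraries. In treated cells it was Ccr1 (160.0 ± 40.0 FPKM), Ccrl2, Ccr7, Cxcr4, Ccr2 and Cx3cr1 (0.168 ± 0.179 FPKM, SD, n = 3 each). There the ranges of Ccr1 and Ccrl2, of Ccrl2 and Ccr7, and of Cxcr4 and Ccr2 overlapped. Ccr7 and Ccr2 changed places: the ratio of the Ccr7 level to the Ccr2 level was 0.0920, 0.117 and 0.111 in vehicle libraries 1 to 3, against 210.2, 28.8 and 23.0 in nanoparticle libraries 1 to 3. The ratio of Ccr1 to Ccr7 went from between 54.2 and 83.8 to between 1.04 and 1.92.

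**Figure D3:**
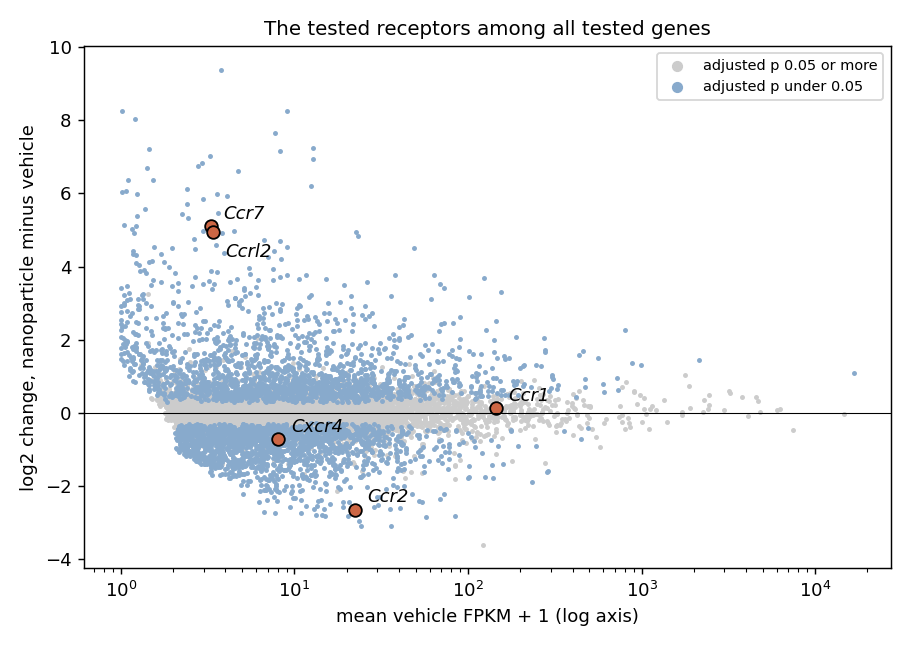
Each point is 1 of the 10682 tested genes, by mean vehicle FPKM + 1 (x axis, log scale) and log2 change, nanoparticle minus vehicle (y axis); blue genes passed an adjusted p of 0.05 and grey ones did not. The 5 tested receptors (orange) include 2 at low vehicle level with changes near 5, and Ccr2 near the lower edge of the cloud at -2.65.

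Of the receptor genes 4 lie on chromosome 9, and Ccr1 and Ccr2 sit there in a cluster with Ccr3, Xcr1, Cxcr6 and Ccr9. The listed genes of this chromosome did not change in 1 direction. The list of 12 also holds Ccrl2 and its neighbour Ltf, which lie outside the cluster. Ccrl2 spans 111054486 to 111057519, while Ccr1 spans 123962124 to 123968692. Of the 12 listed genes 6 were tested, 2 rose and 2 fell, beside 17.0% and 16.2% of all tested genes. The median log2 change of the 6, with Ccrl2 among them, was 0.47, against -0.0010 for all tested genes. The second gene called higher besides Ccrl2, named after its values were seen, was Lztfl1, a gene of ciliary transport (log2 change 1.03, limma adjusted p = 0.00377).

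The remaining chemokine receptors were scarce. Of the other chemotactic receptors listed, 12 lay below the filter and reached at most 2.21 FPKM, and Ccr8 was not analysed here. Of these 12 low genes, 4 were higher and 2 lower in all nanoparticle libraries than in all vehicle ones, and 6 overlapped. Such separation was common among tested genes, at 25.9% higher and 26.2% lower, and the share among genes below the filter is not given here. The low genes named here were chosen after their values were seen. Xcr1, a receptor of cross-presenting dendritic cells, had 8, 16 and 15 reads in vehicle and 161, 61 and 61 in nanoparticle libraries 1 to 3. Ccr4 had 0, 0 and 2 reads in vehicle and 72, 18 and 15 with nanoparticles. Cxcr3 had 2, 2 and 3 against 46, 8 and 11, and Cxcr6 had 3, 0 and 2 against 30, 4 and 4. These 4 genes were the higher ones, each highest in nanoparticle library 1. Cxcr2, a neutrophil receptor, had 24, 46 and 51 reads in vehicle and 1, 7 and 0 with nanoparticles. Cmklr1, the signalling receptor for the chemerin that Ccrl2 presents, was at 26.1 ± 0.850 FPKM in vehicle and at 23.7 ± 2.46 FPKM in treated cells (SD, n = 3 each). It did not pass the test (log2 change -0.14 with a limma adjusted p of 0.391), but with libraries scaled by read totals it was called lower (log2 change -0.47, limma adjusted p = 0.0201).

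Ligands of the 6 receptors went up more often than down. Of 13 listed ligands 8 were tested, and 5 rose and 0 fell by limma, beside 17.0% and 16.2% of all tested genes. At an unadjusted limma p under 0.05, 0 ligands were lower, and the median log2 change of the ligands was 0.80. The largest change was in Ccl5, a ligand of Ccr1, with a log2 change of 9.39 and a limma adjusted p of 9.8e-05. It held 2.44 to 3.21 FPKM in vehicle and 5815, 1665 and 1665 FPKM in nanoparticle libraries 1 to 3, and without library 1 its log2 change was 8.79 (limma adjusted p = 4.0e-08). Ccl3 and Ccl9, also ligands of Ccr1, and Ccl7, a ligand of Ccr1 and Ccr2, had log2 changes of 2.26, 1.35 and 0.83. The remaining ligand that rose, named after its values were seen, was Ccl2 (log2 change 0.78). With read-total and TPM scaling Ccl2 was at 0.43 and 0.31 and not called (limma adjusted p = 0.0557 and 0.0726). Ccl7 was then at 0.49 and 0.36, still called (limma adjusted p = 0.0474 and 0.0438). Ccl5, Ccl3 and Ccl9 kept their calls under both scalings. Ccl19 and Ccl21a, ligands of Ccr7, and Rarres2, which encodes chemerin, were not analysed here. Cxcl12, the ligand of Cxcr4, stayed below 0.1 FPKM in all libraries.

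Genes that mature migratory dendritic cells share with Ccr7 were mostly higher: of 16, all tested, 12 rose and 1 fell. Of all tested genes 17.0% were called higher and 16.2% lower. The median log2 change of the 16 was 2.17. The costimulatory receptor gene Cd40 held 0.987, 1.24 and 1.52 FPKM in vehicle and 107, 93.3 and 89.4 FPKM in nanoparticle libraries 1 to 3 (log2 change 5.44, limma adjusted p = 8.6e-06). Marcksl1, an actin-binding protein, the calcium channel subunit Cacnb3 and the TNF receptor adaptor Traf1 rose by 3.50, 3.33 and 3.53 on the log2 scale. The gene that fell was Adam23, a cell surface protein of the disintegrin family, named after its values were seen (log2 change -1.24, limma adjusted p = 0.00202).

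Genes of the machinery that carries the receptor signal were called in both directions. The list held 20 genes for G proteins, arrestins, receptor kinases, phosphoinositide 3-kinases and small GTPases and their activators. Of these 2 rose, 7 fell and 11 did not pass, beside 17.0% higher and 16.2% lower of all tested genes. The median log2 change of the 20 was 0.09. Dock2, the Rac activator that drives leukocyte migration, held 27.9, 25.9 and 27.2 FPKM in vehicle and 11.9, 13.1 and 11.7 FPKM with nanoparticles (log2 change -1.08, limma adjusted p = 4.96e-04). The phosphoinositide 3-kinase subunit gene Pik3cd and the receptor kinase genes Grk5 and Grk6, which mark active receptors for arrestin binding, fell by 1.10, 1.27 and 0.97 on the log2 scale. The 2 genes that rose, named after their values were seen, were Pik3r5 (log2 change 1.17, limma adjusted p = 0.0115) and Rhoa (log2 change 0.36, limma adjusted p = 0.0348), though Rhoa was at 0.025 with read-total and -0.10 with TPM scaling. Under these scalings 1 and 0 signalling genes were higher, and 9 and 11 were lower. The number called higher depended on nanoparticle library 1 and was 10 without it, while 7 were called lower both with and without it. Calls became more frequent over all 10682 tested genes too, from 1817 higher and 1733 lower with that library to 3660 and 3263 without it. Without vehicle libraries 1, 2 and 3 in turn, 0, 1 and 1 signalling genes were called higher. Leaving out nanoparticle libraries 2 and 3 gave 1 and 1.

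**Figure D4:**
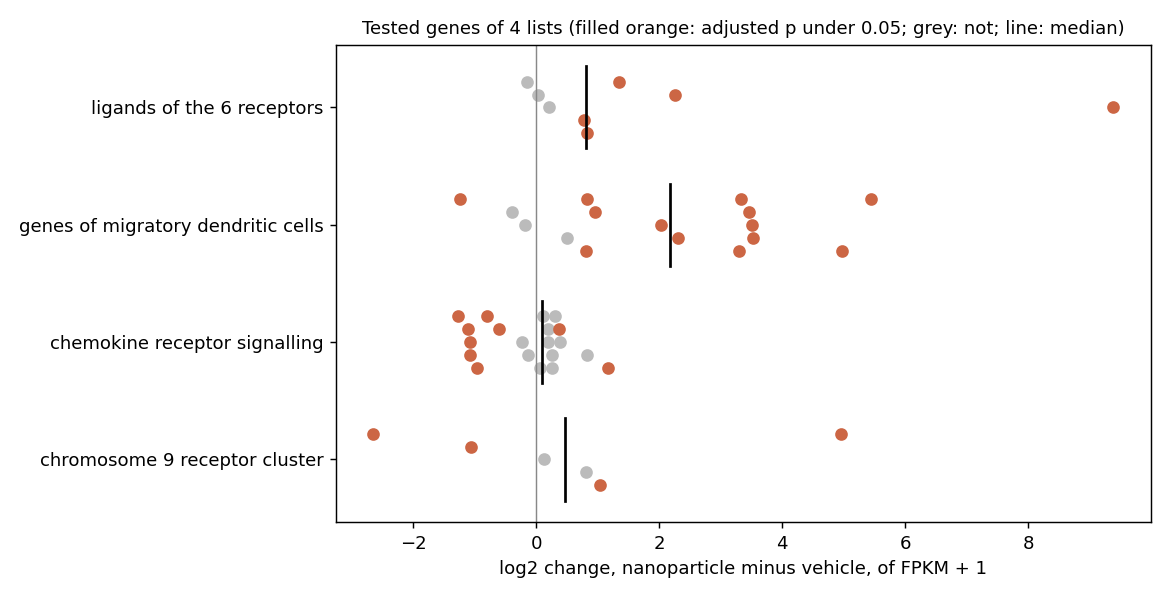
Log2 change of FPKM + 1, nanoparticle minus vehicle (x axis), of every tested gene in 4 lists (rows; the vertical spread within a row has no meaning); orange points passed an adjusted p of 0.05, grey ones did not, and the line is the list median. The migratory dendritic cell genes centre on 2.17 and the signalling genes on 0.09. The row of the chromosome 9 cluster includes Ccrl2, which lies outside that cluster.

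Each tested receptor had its own closest companions, measured as the Euclidean distance between log2(FPKM + 1) profiles over the 6 libraries after centring. For Ccr7 these were Cd40 (distance 0.518), the iron-binding protein gene Lcn2 (0.576) and the growth factor gene Csf3 (0.695). Lcn2 held 52.3, 46.4 and 52.5 FPKM in nanoparticle libraries 1 to 3. For Ccrl2 they were the interferon-inducible GTPase genes Gbp2 (0.415) and Gbp5 (0.519) and the protease inhibitor gene Serpinb2 (0.528), each highest in nanoparticle library 1. Gbp2 held 1427 FPKM there and 495 and 490 FPKM in libraries 2 and 3. Ccr2 was closest to the fibronectin gene Fn1 (0.318), Pald1 (0.348) and Hr (0.392), all lowest in nanoparticle library 1. Cxcr4 was closest to the DNA damage mediator gene Mdc1 (0.117), the von Willebrand factor gene Vwf (0.121) and the DNA demethylation gene Tet3 (0.153), and Ccr1 to P2ry10b (0.0551), Dennd1a (0.0790) and Cpsf7 (0.0954). Genes were selected for this likeness, so it is a description and carries no test.

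Markers of cells that carry these receptors included called genes in both directions, beside the 17.0% higher and 16.2% lower of all tested genes. Of 8 monocyte markers 6 were tested, 2 rose (Ly6c2 and Ms4a4c) and 1 fell (Fn1). Their summed level was 167 to 211 FPKM in vehicle and 326, 183 and 221 FPKM in nanoparticle libraries 1 to 3. The highest sum was that of library 1, where Ms4a4c alone held 229 FPKM, against 23.5 and 35.9 FPKM in libraries 2 and 3. The log2 changes of Ly6c2, Ms4a4c and Fn1 were 2.31, 4.48 and -2.61 with all libraries and 2.93, 3.499 and -2.07 without library 1. Of 11 dendritic cell markers 9 were tested, 1 rose (Irf8) and 5 fell (Zbtb46, Cd209a, Clec10a, Clec9a and Ciita). Their sums were 1516 to 1564 FPKM in vehicle and 820 to 1600 FPKM with nanoparticles, where library 1 was lowest. Most of these sums came from H2-Ab1 (means of 1002 and 905 FPKM) and Itgax (449 and 340 FPKM), neither of which was called. Of 12 macrophage markers, all tested, 4 rose (Adgre1, Fcgr1, Cd68 and Cd14) and 4 fell (Mrc1, C1qa, C1qb and C1qc). Their sums were 1118 to 1287 and 1435 to 1834 FPKM. Cd14 alone went from a mean of 60.0 to 531 FPKM, while C1qb went from 283 to 94.0 FPKM. Of 12 neutrophil markers 4 were tested, 2 rose (S100a8 and Csf3r) and 1 fell (Mmp8), with sums of 266 to 299 and 185 to 257 FPKM. Mmp8 alone held 230 to 259 and 129 to 133 FPKM of these sums. Of the 12 only Mpo stayed below 0.1 FPKM in all libraries. Without library 1 the monocyte markers had 2 called higher and 2 lower, the dendritic cell markers 1 and 6, the macrophage markers 4 and 5 and the neutrophil markers 3 and 1. Of all 10682 tested genes, 3660 were then called higher and 3263 lower. The plasmacytoid dendritic cell marker Siglech and the mast cell and basophil markers Mcpt8 and Ms4a2 were also below 0.1 FPKM throughout. The part of cell composition in the receptor changes was not tested.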

How the data were processed

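RNA was sequenced from 6 libraries, 3 per group, each from 1 µg of total RNA after 12 hours. The authors deposited 2 tables with identical values, treated as FPKM because the values times exon length give whole reads, a unit that no header or label names. The submitters' processing notes list CASAVA, STAR 2.5, HTSeq, edgeR 3.16.5 and DESeq2, and the builds hg19 and mm10, without saying how each was used. Strand, annotation and filters are not given in the sources used here. With GENCODE M21 exon lengths, 95.8% to 96.1% of values above 0 came within 0.01 of a whole number of reads after 1 scale per library. For 567 abundant genes another length was needed. The scale is not the library total, so the deposited FPKM carry a further scaling between libraries.

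The filter kept genes that reached 1 FPKM in 3 or more libraries. They were tested with limma 3.58.1 in R 4.3.3 (log2(FPKM + 1), group as the single term, eBayes with a trend), tested beforehand on simulated data. Fold changes on that scale understate those of low genes. Other steps used Python 3.11.15 with numpy 2.4.6, pandas 2.3.3 and matplotlib 3.10.9. The receptors and gene lists were chosen with earlier results of these data known. Besides the receptors, up to 4 called genes per list were named (smallest adjusted p, a mean of at least 5 FPKM in the higher group), and the 3 genes closest in profile to each tested receptor. Some listed genes are not reported here. Pseudocount, filter, scaling, trend, a replicate block and leaving out each library were the alternatives.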

Additional observations from a re-analysis of the deposited data

How the results depend on the processing

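Ccr7, Ccrl2 and Ccr2 kept their direction and their call under all 14 alternatives, with log2 changes of 4.82 to 5.57, 4.47 to 5.39 and -3.42 to -2.03. Cxcr4 kept its direction and lost its call only in fits without 1 library, in which its log2 change ran from -0.89 to -0.57. Ccr1 was not called under any alternative and turned negative with TPM scaling (-0.34), with scaling by recovered read totals (-0.21) and without nanoparticle library 1 (-0.062, in a leave-one-out range of -0.062 to 0.27). Scaling by totals moved the median over all tested genes to a log2 change of -0.28 and TPM scaling moved it to -0.44. By construction these scalings shifted the balance of calls from 1817 higher and 1733 lower to 1108 and 3613 (read totals) and to 884 and 4241 (TPM).

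TPM scaling gave 1 atypical or chemerin receptor, 1 ligand, 11 signalling genes and 3 migratory dendritic cell genes as lower and 0 signalling genes as higher. Read totals gave 1 atypical or chemerin receptor and 3 migratory dendritic cell genes as lower and 1 signalling gene as higher. The filter at 0.1 FPKM called 1 of the other chemotactic receptors higher (Xcr1) and 2 lower, among them Cxcr2, and no filter also called 2 lower. Leaving out 1 library at a time gave 2141 to 6923 called genes, 1114 to 3660 higher and 1027 to 3263 lower, the largest without nanoparticle library 1. In those fits 3 to 6 ligands and 0 to 10 signalling genes were higher, and 1 to 2 migratory dendritic cell genes were lower.

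With the replicate number as a block, 2785 genes were called in place of 3550, 1 signalling gene was higher in place of 2, and the receptor calls were the same (Cxcr4 limma adjusted p = 0.0480). Whether the numbers pair the libraries is not known. Deviations from the group means correlated at 0.07, 0.11 and -0.06 between same-numbered libraries across genes. Vehicle libraries 1 and 2 correlated best with their own number, and vehicle library 3 did not. With 3 libraries per group, whose deviations sum to 0, these correlations cannot settle it. Depth limits Cx3cr1, at 2 to 32 reads per library.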
